A study of Homo sapiens with 2 samples.

Results

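Activating transcription factors (ATF) and CCAAT/enhancer binding proteins (C/EBP) are basic leucine zipper (bZIP) proteins, which bind DNA as pairs. The 9 genes described here, ATF3, ATF4, ATF5, DDIT3, CEBPA, CEBPB, CEBPD, CEBPG and JDP2, were taken by gene symbol from 25343 gene entries, and all 9 were found. RNA came from Huh7 cells, an established line from a well differentiated human hepatocellular carcinoma. The cells had spent 6 days in low glucose medium (0.45 g/L) or in high glucose medium (4.5 g/L) after routine culture in DMEM with serum. At each passage during the treatment, live cells alone were carried over. Each medium is represented by 1 library, so no difference below has a replicate check or a test.

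In the integrated stress response, kinases that sense amino acid shortage, endoplasmic reticulum stress or other strains phosphorylate the translation factor eIF2 alpha. Most translation then slows, while short upstream reading frames in the ATF4 and ATF5 mRNAs let more of these proteins be made. ATF4 pairs with C/EBP proteins and switches on genes of amino acid supply, along with ATF3 and DDIT3. In the liver, C/EBP alpha maintains the differentiated hepatocyte, whereas C/EBP beta and C/EBP delta serve the acute phase response.

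Values are transcripts per 1000000 (TPM), which correct for transcript length. A gene was compared when its mean over both libraries was at least 1 TPM, which 13745 genes reached. Every difference given is log2(TPM + 1) in low glucose minus the same in high glucose. A gene passed the 2-fold rule at 1 or above, or at -1 or below. The median difference of all genes compared was 0.05, with quartiles of -0.23 and 0.35. TPM are shares of a library, so a change in the number of cells that express a gene and a change in its RNA per cell cannot be told apart. All of the hepatocyte markers listed were detected in both media. The 10 hepatocyte markers ranged from 154 to 16441 TPM in low glucose and from 211 to 20859 TPM in high glucose. No hepatocyte marker passed the 2-fold rule, with 4 higher and 6 lower in low glucose. TTR, named after its values were seen, fell just short of it, at 682 and 1351 TPM, a difference of -0.99. AFP and ALB were the most abundant, AFP at 16441 and 20859 TPM. The leukocyte markers PTPRC, CD3E and CD79A were below 1 TPM in both libraries, and so were the fibroblast marker DCN and the endothelial marker VWF. Other markers on these lists were present: LYZ at 198 TPM in low glucose and 550.3 TPM in high glucose, CD68 at 39.3 and 20.4 TPM, COL1A2 at 24.6 and 18.7 TPM and PECAM1 at 1.25 and 1.35 TPM. Of these, LYZ passed the 2-fold rule as lower in low glucose, with a difference of -1.47. The collagen gene COL1A1 passed it as higher from a low level, at 4.03 TPM in low glucose and 1.06 TPM in high glucose. The part of these markers in the results below was not tested.

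All 9 ATF and C/EBP genes entered the comparison, and they diverged. ATF3, DDIT3, CEBPB and JDP2 passed the 2-fold rule, all higher in low glucose. CEBPG and ATF4 were higher by less than 2-fold, CEBPD was nearly level, and ATF5 and CEBPA were lower by less than 2-fold. The 4 of 9 genes at least 2-fold higher (44.4%) stand beside 3.65% of all genes compared, and the 0 of 9 genes at least 2-fold lower beside 1.1%. The median difference of the 9 genes was 0.87, with 7 above 0 and 2 below, beside 54.6% of all genes above 0. With a 1.5-fold rule, 5 of the 9 genes were higher and 2 lower, beside 13.0% and 6.07% of all genes, and with a 3-fold rule 2 were higher and 0 lower, beside 0.866% and 0.16%. Their summed level was 1988 TPM in low glucose and 1418 TPM in high glucose, of which ATF4 alone made up 904 and 658 TPM.

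**Figure D1:**
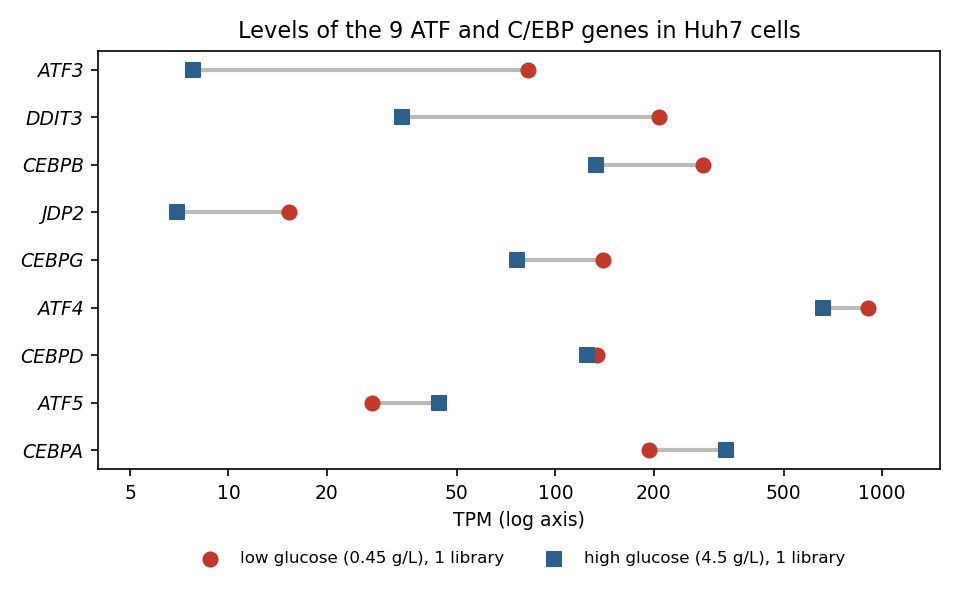
Levels of the 9 ATF and C/EBP genes in TPM on a log axis, with 1 circle for the low glucose library and 1 square for the high glucose library. ATF3 (82.7 against 7.79 TPM) and DDIT3 (208 against 34.1 TPM) have the widest gaps, and in ATF5 and CEBPA the circle lies left of the square.

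ATF4 (chromosome 22, 39916564 to 39918691, hg19), the activator at the centre of the response, stood at 904 TPM in low glucose and 658 TPM in high glucose. Its mRNA was 1.38 times as abundant in low glucose, a difference of 0.46 that ranked 2564th from the top of the genes compared. It was among the most abundant mRNAs in both media, ranking 153rd of all entries in low glucose and 206th in high glucose. The amount of ATF4 protein was not measured.

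ATF3 (chromosome 1, 212738676 to 212794119), a stress-induced factor that often represses its targets, stood at 82.7 TPM in low glucose and 7.79 TPM in high glucose. The ratio was 10.6 and the log2 difference 3.25, the 9th highest of all genes compared. Among all entries its level ranked 2149th in low glucose and 9891st in high glucose.

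DDIT3 (chromosome 12, 57910371 to 57914300) encodes CHOP, a C/EBP relative that pairs with other C/EBP proteins, diverts them from their usual sites and promotes cell death under lasting stress. It stood at 208 TPM in low glucose and 34.1 TPM in high glucose, a ratio of 6.11 and a log2 difference of 2.58, the 27th highest. Relative to ATF4 mRNA, the ratio of DDIT3 TPM was 0.23 in low glucose and 0.0518 in high glucose. The same ratio for ATF3 over ATF4 was 0.0914 in low glucose and 0.0118 in high glucose. Both ratios are taken within a library, so they do not depend on how the libraries are scaled. They show that ATF3 and DDIT3 differed between the media by a larger factor than ATF4 did in these libraries. The DDIT3 interval overlaps that of MARS, the methionyl-tRNA synthetase gene, by 68 bases. MARS stood at 242 TPM in low glucose and 166 TPM in high glucose. Whether the counting used strand is not given in the sources used here, so reads from the shared bases cannot be assigned with certainty.

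ATF5 (chromosome 19, 50431959 to 50437193), which is linked to mitochondrial protein stress and to cell survival, stood at 27.5 TPM in low glucose and 44.2 TPM in high glucose. Its log2 difference was -0.67, the 592nd lowest. For every ATF5 transcript there were 32.9 ATF4 transcripts in low glucose and 14.9 in high glucose, on the TPM scale. The first bases of ATF5 lie within the intervals of NUP62, a nuclear pore gene, and IL4I1, with overlaps of 1030 and 838 bases. NUP62 stood at 78.9 TPM in low glucose and 94.6 TPM in high glucose, and IL4I1 at 1.27 and 0.71 TPM, so the level of ATF5 is less certain than that of the other genes.

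JDP2 (chromosome 14, 75894509 to 75939404), a close relative of ATF3 that represses AP-1, was the least abundant of the 9 genes. It stood at 15.3 TPM in low glucose and 6.94 TPM in high glucose. Its difference of 1.04 lay just inside the 2-fold rule and was between 0.77 and 0.996 under 5 of the alternatives tried. JDP2 and ATF3 had similar levels in high glucose, where ATF3 over JDP2 was 1.12, while in low glucose this ratio was 5.41.

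**Figure D2:**
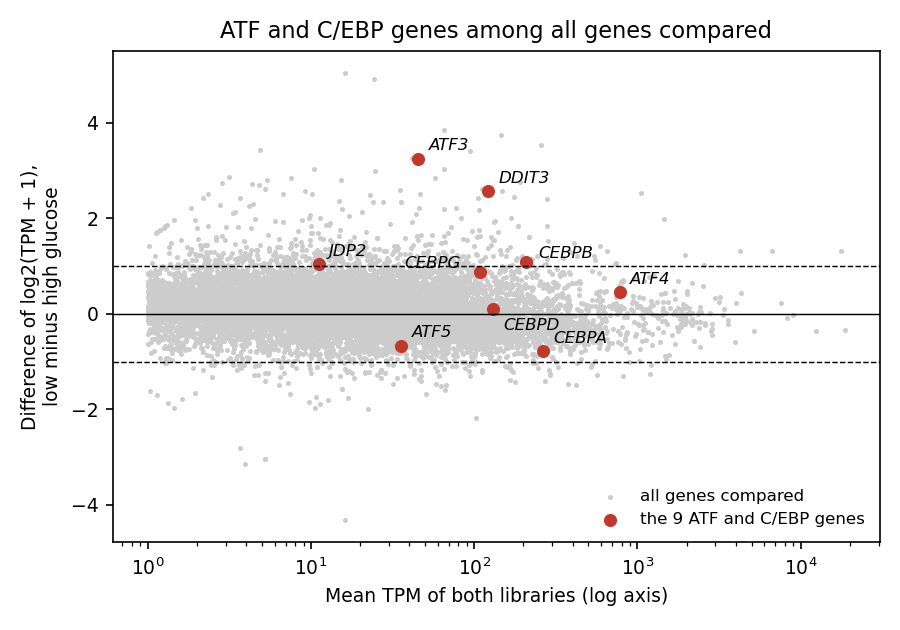
Low minus high glucose difference, on the log2(TPM + 1) scale, against mean TPM on a log axis for the 13745 genes compared (grey) and the 9 ATF and C/EBP genes (red, named); dashed lines mark the 2-fold rule. ATF3 and DDIT3 lie far above the bulk of genes, CEBPB and JDP2 lie just above the upper line, and CEBPA and ATF5 lie between 0 and the lower line.

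The C/EBP genes differed in opposite directions. CEBPA (chromosome 19, 33790840 to 33793470), the hepatocyte differentiation factor, stood at 193 TPM in low glucose and 333 TPM in high glucose, a log2 difference of -0.78 that was the 360th lowest. Genes in the same 1 of 20 level groups had a median difference of -0.14, as abundant genes tended to lie below 0. CEBPB (chromosome 20, 48807120 to 48809227), a factor of the acute phase and of liver regeneration, stood at 283 TPM in low glucose and 133 TPM in high glucose. Its difference of 1.08 ranked 411th from the top and was 0.99 with median-of-ratios scaling, just short of 2-fold. C/EBP beta is translated as activating and inhibitory isoforms from the same mRNA, which these values do not separate.

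CEBPD (chromosome 8, 48649476 to 48650726), an acute phase and inflammation factor, stood at 134 TPM in low glucose and 125 TPM in high glucose. Its difference of 0.09 lay close to the median of all genes. CEBPG (chromosome 19, 33864575 to 33873592), a short C/EBP without an activation domain that can pair with ATF4, stood at 139.9 TPM in low glucose and 76.3 TPM in high glucose. Its difference of 0.87 ranked 754th from the top and lay just outside the 2-fold rule. CEBPG lies 71.1 kb from CEBPA on chromosome 19, and these neighbours differed in opposite directions.

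The make-up of C/EBP family mRNA therefore differed between the media. CEBPA made up 20.2% of the family's summed TPM in low glucose and 47.4% in high glucose. DDIT3 made up 21.7% in low glucose and 4.86% in high glucose, and CEBPB 29.6% and 19.0%. The order of abundance was CEBPB, DDIT3, CEBPA, CEBPG and CEBPD in low glucose, against CEBPA, CEBPB, CEBPD, CEBPG and DDIT3 in high glucose. In low glucose DDIT3 and CEBPA (208 and 193 TPM) and CEBPG and CEBPD (139.9 and 134 TPM) are close pairs in this order, as are CEBPB and CEBPD in high glucose (133 and 125 TPM). No replicate spread exists to rank them. CEBPB over CEBPA was 1.47 in low glucose and 0.4 in high glucose, and DDIT3 over CEBPA was 1.08 and 0.102. CEBPG over CEBPB, in contrast, was 0.494 in low glucose and 0.572 in high glucose. The family sum was 958 TPM in low glucose and 702 TPM in high glucose. CEBPE, a factor of granulocytes, was listed at 0 in both libraries.

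**Figure D3:**
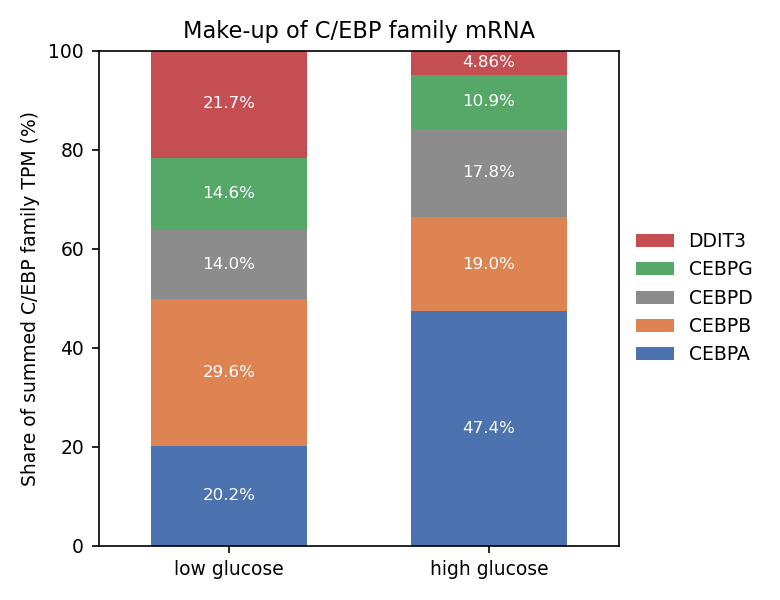
Share of each gene in the summed TPM of the C/EBP family, in percent, as stacked bars for the low glucose library (left) and the high glucose library (right). CEBPA is the largest block in high glucose (47.4%) and takes 20.2% in low glucose, where DDIT3 takes 21.7%.

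ATF4 and C/EBP pairs bind a composite site known as the C/EBP-ATF response element, whose common letters are TGATGNAA, with TGATGCAA as a frequent form. These letters were searched on both strands of RefSeq promoter windows (GRCh38.p14), each running from 250 bases before to 50 bases after an annotated start. Windows were found for 8 of the 9 genes, 17 in all, since several genes have more than 1 start. CEBPD had no window and was not searched. TGATGNAA occurred for 3 of these 8 genes, beside 4.46% of all genes with a window (3.62% of all 35116 windows). A gene with more windows has more room for a match, which these shares do not correct for. The stretches below show the matches of ATF3, JDP2 and CEBPG, then those of the ATF4 targets CHAC1, HERPUD1 and ASNS for comparison, each read in the direction of its gene with the match in capitals. Where the match is on the other strand the capitals read TTGCATCA.

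ATF3: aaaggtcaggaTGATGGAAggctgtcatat

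JDP2: atagccggggcTGATGCAAcccgtcccgcc

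CEBPG: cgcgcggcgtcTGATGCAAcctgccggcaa

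CHAC1: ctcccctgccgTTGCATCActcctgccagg

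HERPUD1: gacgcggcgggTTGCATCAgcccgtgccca

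ASNS: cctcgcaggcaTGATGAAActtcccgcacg

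The ATF3 stretch (chromosome 1, 212565205 to 212565234, GRCh38, plus strand) lies upstream of the gene's more distal start, with the match at -191 to -184. The JDP2 stretch (chromosome 14, 75427995 to 75428024, plus strand) has its match at -16 to -9 from an alternative start, and GENCODE release 29 places it in an intron of JDP2. The CEBPG stretch (chromosome 19, 33374060 to 33374089, plus strand) has its match at -42 to -35 from an alternative start and lies in an intron of CEBPG. JDP2 and CEBPG carry the full letters TGATGCAA, which 0.866% of all windows hold in this orientation or as TTGCATCA. These form a subset of the TGATGNAA matches. The CHAC1 stretch (chromosome 15, 40953251 to 40953280, plus strand) and the ASNS stretch (chromosome 7, 97872458 to 97872487, minus strand) overlap an untranslated exon part of other transcripts of the same gene. The HERPUD1 stretch (chromosome 16, 56931955 to 56931984, plus strand) lies upstream of the gene. Of the ATF4 target list described below, 23 genes had a window that was searched, and 6 of them held TGATGNAA.

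The AP-1 letters TGACTCA occurred for 2 of these 8 genes, DDIT3 and ATF5, beside 6.05% of all genes with a window (4.95% of all windows). The same limit on the number of windows holds here. The ATF5 match lies at -188 to -182 (chromosome 19, plus strand). Any part of AP-1 in the differences of these genes was not tested. The DDIT3 match lies at -241 to -235 (chromosome 12, 57520738 to 57520764, minus strand) and is shown in capitals.

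DDIT3: gcgcgcgcaTGACTCAcccacctcctc

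The cyclic AMP response letters TGACGTCA (1.85% of windows), the C/EBP palindrome TTGCGCAA (0.151%) and the longer endoplasmic reticulum stress element (0.0769%) were in no window of the 8 genes. A match of letters does not show that a factor binds there.

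The other bZIP genes are possible partners of these factors. Of 44 listed, 39 were compared, and 12 of them (30.8%) passed the rule with a higher level in low glucose, against 3.65% of all genes compared, while 0 were 2-fold lower. Their median difference was 0.33. Ordered by difference among the 48 bZIP genes compared, ATF3 was 1st and DDIT3 4th, CEBPB, JDP2 and CEBPG were 14th, 16th and 17th, and ATF5 and CEBPA were 45th and 47th. Ordered by level, ATF4 was 2nd in both libraries, after XBP1, a factor of the unfolded protein response, at 1053 TPM in low glucose and 812 TPM in high glucose. CEBPB was 3rd in low glucose and 6th in high glucose, while CEBPA was 8th and 4th. DDIT3 was 6th in low glucose and 20th in high glucose.

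The higher bZIP genes were mostly of the AP-1 and MAF groups. Of 9 AP-1 genes compared, 6 were at least 2-fold higher (66.7%, beside 3.65% of all genes), with a median of 1.22. FOSB (9.04 TPM in low glucose, 0.54 TPM in high glucose), FOS (16.5 and 1.92 TPM) and FOSL1 (7.56 and 0.78 TPM) came from low levels. JUN, a partner that can pair with ATF3, was more abundant, at 158 and 51.2 TPM, and JUND was nearly level, at 207 and 222 TPM. Of 10 CNC and MAF genes compared, 4 were higher, beside the same 3.65%. These were the small MAF genes MAFG (67.8 TPM in low glucose, 21.4 TPM in high glucose), MAFF (62.0 and 22.3 TPM) and MAFK (47.5 and 17.2 TPM), together with NFE2L1 (273 and 117 TPM), a regulator of proteasome genes. NFE2L2, the antioxidant factor NRF2, stood at 229 TPM in low glucose and 347 TPM in high glucose, a difference of -0.60. Of 16 CREB, ATF6 and XBP1 factors, 1 was at least 2-fold higher (6.25%, a share near the 3.65% of all genes), CREB5 at 17.6 and 5.17 TPM, and the median was 0.04. CREB3L2, after XBP1 the most abundant of these, stood at 111 TPM in low glucose and 120.1 TPM in high glucose. NFIL3, a bZIP repressor, stood at 149 TPM in low glucose and 68.2 TPM in high glucose and was the only one of 4 genes compared on its list past 2-fold, while HLF stood at 13.4 and 10.4 TPM.

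**Figure D4:**
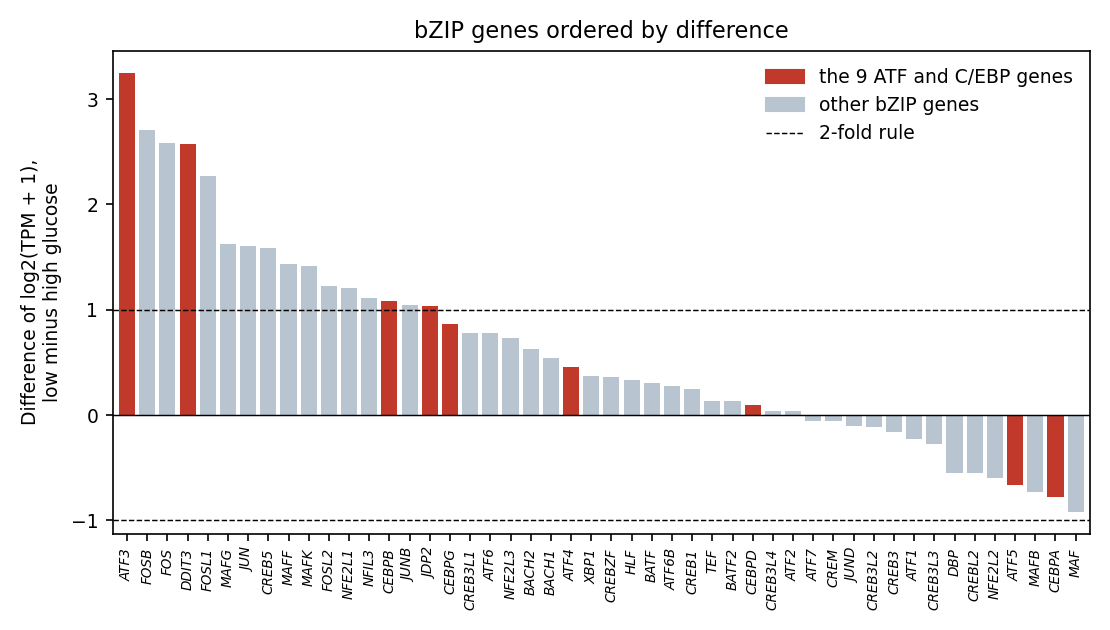
Low minus high glucose difference, on the log2(TPM + 1) scale, of the 48 bZIP genes compared, in descending order, with the 9 ATF and C/EBP genes in red and dashed lines at the 2-fold rule. The 16 genes above the upper line include ATF3, DDIT3, CEBPB and JDP2, and CEBPA and ATF5 stand near the right end.

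Upstream of ATF4, the genes that control eIF2 alpha were mostly within 2-fold. Of 12 genes, 1 was at least 2-fold higher (8.33%, beside 3.65% of all genes) and 0 were 2-fold lower (beside 1.1%). The median was 0.34. The exception was PPP1R15A (GADD34), the inducible phosphatase subunit that reverses eIF2 alpha phosphorylation and a known CHOP target, at 295 TPM in low glucose and 53.6 TPM in high glucose. GCN1L1, an activator of the amino acid sensing kinase, stood at 89.0 and 75.9 TPM. The 4 kinase genes, named after their values were seen because they form a complete set, did not move together. EIF2AK3 (PERK) stood at 39.1 TPM in low glucose and 20.7 TPM in high glucose, a difference of 0.89. EIF2AK4 (GCN2), EIF2AK2 (PKR) and EIF2AK1 (HRI) had differences of -0.17, -0.27 and -0.39. Kinase activity was not measured.

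Downstream, 20 of the 30 ATF4 target genes compared (66.7%) passed the rule with a higher level in low glucose, beside 3.65% of all genes, and 0 with a lower level, beside 1.1%. The median difference was 1.98. CHAC1, INHBE and GDF15 had the largest differences, at 3.85, 3.75 and 3.54. INHBE, an activin chain made by the liver, stood at 271 TPM in low glucose and 19.3 TPM in high glucose. SLC3A2, the shared heavy chain of several amino acid transporters, was the most abundant target at 1795 and 311 TPM. Serine synthesis genes of the list had smaller differences: PSAT1 stood at 539 and 332 TPM, a difference of 0.70. PHGDH and PSPH, named after their values were seen to complete this set, had differences of 0.28 and -0.07. This list was written with results of these data known, so it does not stand as separate evidence of a direction.

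Of 9 CHOP target genes, 6 were at least 2-fold higher (66.7%, beside 3.65% of all genes) and 0 lower (beside 1.1%), with a median of 1.61. This list shares CHAC1 and TRIB3 with the ATF4 targets and PPP1R15A with the genes that control eIF2 alpha. TRIB3, a pseudokinase that binds ATF4 and CHOP and restrains them, stood at 335 TPM in low glucose and 48.5 TPM in high glucose. Among 8 adaptors of protein turnover compared, which include ubiquitin ligase components acting on ATF4 and C/EBP proteins, TRIB3 alone was past 2-fold (12.5%, beside 3.65%). TRIB1, which directs C/EBP alpha to degradation, stood at 45.3 TPM in low glucose and 25.6 TPM in high glucose, a difference of 0.80.

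Genes linked to ATF5 were all within 2-fold, as most genes compared were. A few genes linked to C/EBP alpha passed the rule, in either direction and partly from low levels. Of 10 mitochondrial stress genes linked to ATF5, 0 were 2-fold higher (beside 3.65% of all genes) and 0 were 2-fold lower (beside 1.1%), with a median of -0.06. The chaperonin genes HSPD1 (847 TPM in low glucose, 883 TPM in high glucose) and HSPE1 (451 and 679.9 TPM) were the most abundant. Of 16 hepatocyte targets of C/EBP alpha compared, 2 were higher (12.5%, beside 3.65% of all genes) and 1 was lower (6.25%, beside 1.1%), with a median of -0.12. This list holds 23 genes. Those not compared had a mean below 1 TPM, and 2 of them were at 0 in both libraries. The clotting factor gene F7 stood at 69.3 TPM in low glucose and 28.1 TPM in high glucose, and TAT, which degrades tyrosine, at 6.34 and 2.09 TPM. The alcohol dehydrogenase gene ADH1B, the 1 lower gene, stood at 1.28 and 3.79 TPM. TAT and ADH1B thus lie at low levels, and at a mean of at least 10 TPM the counts were 1 higher and 0 lower. TTR, also a hepatocyte marker, stood at 682 and 1351 TPM, and its difference of -0.99 fell just short of the rule. Albumin (ALB) stood at 7997 and 8528 TPM and APOA1 at 2542 and 3151 TPM.

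Genes listed as acute phase targets of C/EBP beta and C/EBP delta passed the rule in both directions. Of 17 compared, 2 passed it as higher (11.8%, beside 3.65% of all genes) and 3 as lower (17.6%, beside 1.1%), and the median was 0.15. SERPINA3, a protease inhibitor, stood at 28.1 TPM in low glucose and 10.5 TPM in high glucose. ORM1 stood at 977 and 475 TPM; it shares reads with its near-identical neighbour ORM2, and their sum was 1402 TPM in low glucose and 721 TPM in high glucose, a difference of 0.96 that falls just short of 2-fold. The 3 lower genes were all serum amyloid genes, so this count rests on that family alone. SAA4 stood at 23.5 TPM in low glucose and 78.0 TPM in high glucose. The near-identical SAA1 and SAA2, which share reads, had a sum of 15.1 and 33.6 TPM. Whether SAA4 acts as an acute phase gene in these cells was not tested. The abundant FGA (1142 and 889 TPM) and A2M (1003 and 1172 TPM) were within 2-fold.

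**Figure D5:**
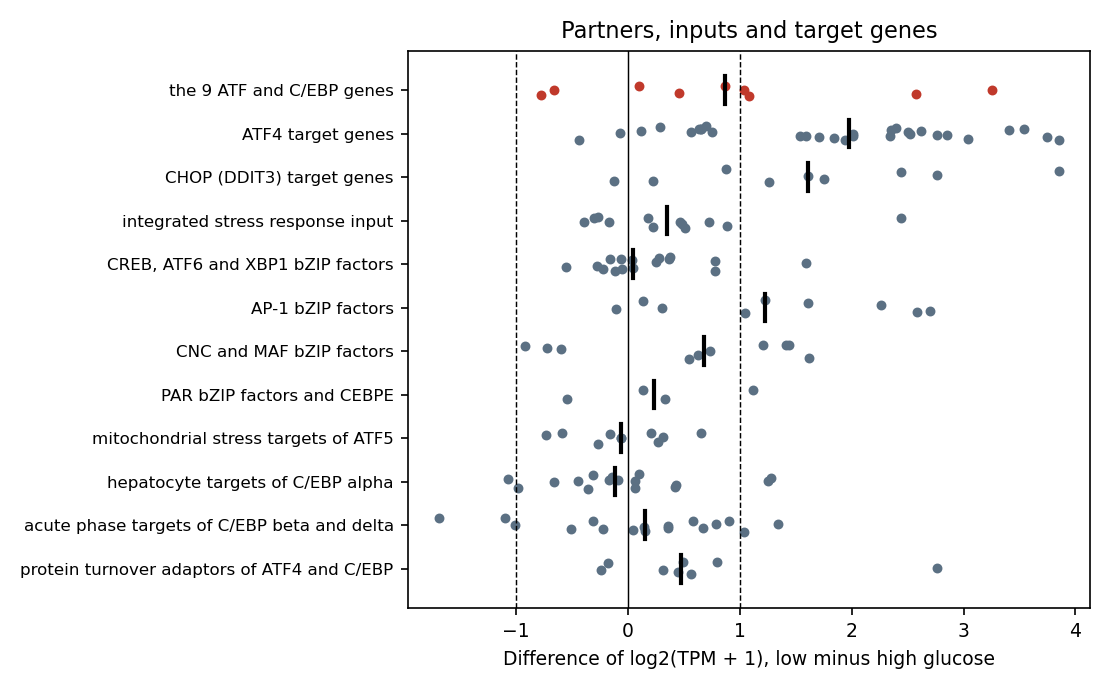
Low minus high glucose difference, on the log2(TPM + 1) scale, for each gene compared (points) of the 9 ATF and C/EBP genes and of 11 lists of partners, inputs and targets; black bars are medians and dashed lines mark the 2-fold rule. The medians of ATF4 targets (1.98), CHOP targets (1.61) and AP-1 factors (1.22) lie beyond the upper line, and those of the ATF5 and C/EBP alpha lists lie near 0.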

How the data were processed

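RNA from 2 Huh7 cultures was sequenced, 1 library per medium, with the group taken from the treatment label. The authors deposited TPM per gene, with 2 decimals and an hg19 interval per entry, per the file headers. The submitters' processing notes name cutadapt and RSEM 1.2.21, which divides reads that map to several genes. The sources used here do not name the aligner, annotation, filters or strand handling. TPM keep no read number, so the depth is unknown and no counting interval is given.

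From these values, log2(TPM + 1) differences were computed over the whole table, with a mean of at least 1 TPM and the 2-fold rule. Named genes were the 9 genes and, of each list, the 2 most abundant, up to 3 with the largest positive and up to 2 with the most negative difference past the rule; exceptions are marked. ORM2 and SAA1 were added for the reads they share; 1 gene named by the rule on nearest patterns is not reported here. HERPUD1 and ASNS are shown for their promoter letters only. The members, 11 context lists and rule were chosen with earlier results of these data known. The procedure was tested on simulated data with effects of 3-fold or more in genes with a mean of at least 10 TPM. Effects near 2-fold or at lower levels were not covered. Python 3.11.15, NumPy 2.4.6 and pandas 2.3.3 were used. Alternatives were other scalings, pseudocounts, level filters and fold rules.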

Additional observations from a re-analysis of the deposited data

How the results depend on the processing

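No paired analysis was possible because each medium has 1 library. Of 11 alternatives, 4 (the level filters and fold rules) leave a gene's difference as it is. Under the other 7, each of the 9 genes kept its direction: ATF3 ranged from 2.78 to 3.39, DDIT3 from 2.45 to 2.70, ATF4 from 0.37 to 0.60, CEBPG from 0.78 to 0.99, CEBPD from 0.0068 to 0.26, ATF5 from -0.75 to -0.60 and CEBPA from -0.87 to -0.64. CEBPB and JDP2 sat at the edge of the rule. With median-of-ratios scaling CEBPB was at 0.99 and JDP2 at 0.96, which left 2 of the 9 genes higher. JDP2 was also short of 2-fold with upper-quartile scaling (0.996), a pseudocount of 5 (0.77) and, both chosen after seeing the data, trimmed-mean scaling (0.98) and subtraction of the median of each expression level group (0.92). A 3-fold rule left 2 genes higher, and a 1.5-fold rule counted 2 genes lower. Under these scalings the median over all genes lay from -0.03 to 0.08.

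Of 264 list counts recomputed, 233 stayed within 1.5 times. Many of these were counts of lower genes that stayed at 0, so this share says little of the counts above 0. A fall from 6 to 4, as for AP-1 factors with a pseudocount of 5, also lies within 1.5 times. Among hepatocyte targets of C/EBP alpha, 2 were lower with median-of-ratios, upper-quartile and trimmed-mean scaling, 3 with the 1.5-fold rule, and 0 with a pseudocount of 5, a mean of at least 10 TPM or the 3-fold rule; 1 was higher with a pseudocount of 5 or a mean of at least 10 TPM, and 0 with the 3-fold rule. Among acute phase targets, 1 was higher with the same 3 scalings, 6 with the 1.5-fold rule and 0 with the 3-fold rule, and 1 was lower with a pseudocount of 5 or the 3-fold rule. AP-1 factors past 2-fold numbered 3 of 4 at a mean of at least 10 TPM. CNC and MAF factors counted 1 lower with median-of-ratios scaling, 3 lower with the 1.5-fold rule and 1 higher with the 3-fold rule. CREB, ATF6 and XBP1 factors counted 2 higher with a pseudocount of 0.1 and 3 with the 1.5-fold rule. With the 1.5-fold rule, genes that control eIF2 alpha counted 3 higher, turnover adaptors 2 higher, and mitochondrial stress genes 1 higher and 2 lower. The PAR list, with NFIL3, counted 0 higher with the 3-fold rule. The ATF4 and CHOP target counts stayed within 1.5 times under every alternative. The number of reads is unknown, so the precision of low values such as those of JDP2 cannot be given.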

Other observations

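Genes beside the ATF and C/EBP genes, within 10 kb in the authors' hg19 intervals, were chosen after their values were seen. SPIDR, 913 bases from CEBPD, stood at 27.4 TPM in low glucose and 23.1 TPM in high glucose, a difference of 0.24 beside 0.09 for CEBPD. MBD6, next to DDIT3, stood at 92.2 TPM in low glucose and 59.6 TPM in high glucose, and DCTN2, on the same side, at 133 and 129.6 TPM. CEBPA-AS1, a noncoding gene 293 bases from CEBPA, stood at 12.3 TPM in low glucose and 10.0 TPM in high glucose, a difference of 0.27 beside -0.78 for CEBPA. PEPD, a dipeptidase gene next to CEBPG, stood at 75.9 and 111 TPM, a difference of -0.54 beside 0.87 for CEBPG. RPS19BP1 and MIEF1, on either side of ATF4, had differences of -0.57 and -0.32 beside 0.46 for ATF4. FAM71A, next to ATF3, was at 0.09 TPM in low glucose and listed at 0 in high glucose.

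The genes nearest in pattern to each gene past the rule were found by Euclidean distance in log2(TPM + 1) over the 2 libraries, a likeness that rests on 2 values. ATF3 was nearest to AREG, an EGF receptor ligand, at 81.4 TPM in low glucose and 7.67 TPM in high glucose (distance 0.0303), then to SH3BP2 (0.185) and MEF2B (0.485). DDIT3 was nearest to DDIT4, an inhibitor of mTORC1, at 191 and 30.4 TPM (0.202), then to THBS1 (0.222) and OSGIN1 (0.281). CEBPB was nearest to WSB1 (0.0343) and ANKRD1 (0.148), and JDP2 to PRR22 (0.0296), INPP5J (0.0502) and RRN3P1 (0.0518).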
